A study of Mus musculus with 18 samples.

Results

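Cdx2, Tfap2c, Gata3, Ascl2 and Elf5, 5 transcription factors of the trophectoderm, were followed from mouse embryonic stem cells (ESC) into embryoid bodies (EB). Their probes were found by the RefSeq accession that the scanner files give for each probe. All 5 genes had 1 probe each on the larger of the 2 array products, of 19045 genes named there, and Cdx2, Gata3 and Elf5 had the same probe on the smaller product as well. In the samples measured on the larger product, 1 per group, Gata3, Cdx2 and Ascl2 were highest in 7-day EB, Tfap2c was highest in 3-day EB, and Elf5 stayed near the background throughout. The smaller product measured Gata3 in 1 of its 2 samples of 7-day EB and in adult tissue only, and never measured Cdx2 or Elf5.

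The trophectoderm is the outer epithelium of the blastocyst and founds the trophoblast of the placenta. Cdx2 (a caudal-type homeobox factor), Elf5 (an ETS factor), Gata3 (a zinc finger factor) and Tfap2c (AP-2 gamma) belong to the network that sets up and maintains trophoblast stem cells, and Ascl2 (Mash2, a basic helix-loop-helix factor expressed from the maternal allele in placenta) is needed for the spongiotrophoblast. ESC come from the inner cell mass, where the POU factor Oct4 (Pou5f1) holds Cdx2 down, and the Elf5 promoter is known to be methylated in ESC and unmethylated in trophoblast stem cells. The 5 genes also work elsewhere: Cdx2 in the posterior embryo and intestine, Tfap2c in primordial germ cells and ectoderm, Gata3 in T cells and several epithelia, Ascl2 in intestinal stem cells, and Elf5 in mammary and lung epithelium.

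The study compared the undifferentiated state of ESC with early spontaneous differentiation. ESC of the line MES3, derived from the inner cell mass of a blastocyst (C57BLxCBA), were grown with LIF on mouse embryonic fibroblast feeders inactivated with Mitomicin C. EB were colony pieces moved to low-adhesion plates in that medium without LIF and b-mercaptoethanol for 3 or 7 days. The 10 samples (18 arrays) were 2 of ESC, 3 of EB day 3, 3 of EB day 7 and 2 of adult tissue, whose organ and strain the labels do not give. All cultured samples come from 1 cell line, and the labels do not say whether samples were separate cultures, so the spread between them may be technical. UniSet 20K, the smaller product, held ESC replicate 1, EB day 3 replicates 1 and 2, EB day 7 replicates 1 and 2 (2 arrays each) and both adult tissue samples (1 array each). Whole Genome, the larger product, held ESC replicate 2, EB day 3 replicate 3 and EB day 7 replicate 3 (2 arrays each), that is 1 sample per group.

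CodeLink arrays are read in 1 colour, and values are raw intensities in scanner units unless a log2 scale is named. The scanner software marks spots below background. On UniSet 20K, 27.8% to 36.4% of gene probes passed that mark on the culture arrays and 52.9% to 57.9% on the adult tissue arrays, and on Whole Genome 60.9% to 72.2% did, so more genes were measured on Whole Genome. By the headers' dates, the adult tissue arrays were analysed apart from the other UniSet 20K arrays, and EB day 7 replicate 3 apart from the other Whole Genome samples. That date and the group cannot be told apart in these 2 cases. The pluripotency list (Pou5f1, Nanog, Sox2 and others) was above background for 7 of 8 genes with a probe in ESC replicate 1 and for 11 of 11 in ESC replicate 2. Feeder fibroblast markers were above background for 13 of 15 and 16 of 16 genes in those ESC samples, and the labels name feeders as part of these cultures.

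The promoter windows of the 3 factors that were highest in 7-day EB on Whole Genome are shown for what their sequences share. They run from 250 bases before to 50 bases after the RefSeq transcription start (build GRCm38.p6), 5′ to 3′ on the gene's strand, with capitals at the motif matches described below. Cdx2 lies at chr5:147307200-147307499, minus strand, Gata3 at chr2:9878551-9878850, minus strand, and Ascl2 at chr7:142969215-142969514, minus strand.
Cdx2: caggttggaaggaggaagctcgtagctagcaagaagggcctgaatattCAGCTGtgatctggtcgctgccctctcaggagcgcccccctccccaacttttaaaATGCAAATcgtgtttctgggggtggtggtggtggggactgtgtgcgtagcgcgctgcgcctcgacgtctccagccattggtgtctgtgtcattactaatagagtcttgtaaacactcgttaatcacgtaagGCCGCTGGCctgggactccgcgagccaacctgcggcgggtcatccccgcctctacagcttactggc
Gata3: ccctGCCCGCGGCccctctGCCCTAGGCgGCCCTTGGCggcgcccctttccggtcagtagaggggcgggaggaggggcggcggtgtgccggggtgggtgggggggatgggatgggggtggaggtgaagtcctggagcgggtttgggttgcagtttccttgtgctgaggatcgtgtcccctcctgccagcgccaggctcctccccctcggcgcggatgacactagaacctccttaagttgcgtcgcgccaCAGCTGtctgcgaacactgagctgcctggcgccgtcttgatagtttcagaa
Ascl2: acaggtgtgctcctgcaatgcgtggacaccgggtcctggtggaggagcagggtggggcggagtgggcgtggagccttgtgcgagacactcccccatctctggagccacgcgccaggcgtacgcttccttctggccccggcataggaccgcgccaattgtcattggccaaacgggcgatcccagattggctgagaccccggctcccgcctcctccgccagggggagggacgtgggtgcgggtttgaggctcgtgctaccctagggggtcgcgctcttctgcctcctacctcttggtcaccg

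Of 7 motifs searched on both strands, the POU octamer ATGCAAAT, known as the core of Oct4 binding sites, began at -147 in Cdx2, counted from the start base as 0. It was present in 1.74% of the 32851 windows of all genes. The AP-2 motif GCCNNNGGC, bound by the family of Tfap2c, began at -16 in Cdx2 and at -246, -231 and -221 in Gata3, and 16.6% of all windows held it at least 1 time. The E-box CAGCTG, present in 16.3% of windows, began at -202 in Cdx2 and at -1 in Gata3. None of the 7 motifs, which also included those of TEAD factors (GGAATG, 14.7% of windows), GATA factors (AGATAA, 11.2%), CDX factors (CATAAA, 11.9%) and ETS factors (GGAAGT, 23.8%), was in the Ascl2 window. Elf5 has a pair of RefSeq windows, 1 with CAGCTG at -187 and GGAATG on the reverse strand at -173, and 1 with CATAAA at -37. CpG dinucleotides numbered 18 in Cdx2, 22 in Gata3 and 23 in Ascl2, and 3 and 10 in the Elf5 windows, against a median of 7 over all windows. A match of letters is a description and not a bound site.

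Gata3 (probe GE34460, chromosome 2) had the largest difference of the 5 genes on Whole Genome. Its raw intensity was 57.0 and 46.7 on the arrays of ESC, 117.5 and 111.9 at EB day 3 and 693.0 and 712.2 at EB day 7, all above background. The step to EB day 7 was far larger than the gap between arrays of a sample. The step from ESC to EB day 3 was nearer to that gap, with normalized log2 levels of 5.88 and 6.27 in ESC and 6.99 and 6.81 at EB day 3. After normalization EB day 7 lay 8.67-fold above ESC (log2 difference 3.12, range 2.91 to 3.32 over pairs of arrays) and 4.89-fold above EB day 3 (log2 2.29). EB day 3 lay 1.77-fold above ESC (log2 0.83, range 0.54 to 1.11). With 1 sample per group there is no test of these differences, and arrays of 1 sample carry technical error only. In bulk samples, more cells that express a gene and more RNA per cell cannot be told apart.

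Cdx2 (GE34841, chromosome 5) was dimmer and kept the same order. Its intensity was 21.5 (below background) and 24.8 (above) in ESC, 40.8 and 38.4 at EB day 3, and 129.5 and 130.1 at EB day 7. EB day 7 was brightest, at 3.30-fold ESC (log2 1.72, range 1.30 to 2.15) and 2.49-fold EB day 3 (log2 1.31). The fold over ESC rests in part on the ESC array below background. EB day 3 and ESC were not separated once the arrays were scaled: the log2 difference was 0.41, and its range over pairs of arrays, -0.07 to 0.89, included 0. In multiples of the array's median gene probe, Cdx2 was at 0.415 and 0.747 in ESC, 0.803 and 0.732 at EB day 3 and 1.97 and 1.88 at EB day 7.

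Ascl2 (GE1560806, chromosome 7) gave 131.4 and 53.7 in ESC, 161.3 and 177.5 at EB day 3 and 292.3 and 294.1 at EB day 7. The ESC arrays disagreed with each other by more than EB day 3 differed from the brighter of them. In multiples of the array's median gene probe they were closer, at 2.53 and 1.62, against 3.17 and 3.38 at EB day 3 and 4.44 and 4.25 at EB day 7. EB day 7 was 2.17-fold above ESC (log2 1.11, range 0.79 to 1.44) and 1.36-fold above EB day 3 (log2 0.45, range 0.41 to 0.49). EB day 3 was 1.59-fold above ESC (log2 0.67, range 0.36 to 0.97).

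Tfap2c (GE1537409, chromosome 2) had another order: EB day 3 was highest, EB day 7 lay between and ESC was lowest. The intensities were 146.5 and 124.7 in ESC, 491.3 and 601.4 at EB day 3 and 381.4 and 424.0 at EB day 7. EB day 3 was 3.01-fold above ESC (log2 1.59, range 1.26 to 1.93) and EB day 7 was 1.86-fold above ESC (log2 0.89, range 0.61 to 1.17). From EB day 3 to EB day 7 the log2 difference was -0.70 (range -0.84 to -0.56).

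Elf5 (GE35351, chromosome 2) was above background on 1 of 18 arrays in the whole study. On Whole Genome it gave 6.50 and 5.34 in ESC, 6.81 and 3.95 at EB day 3, all below background, and 18.9 (below) and 25.1 (above) at EB day 7. The EB day 7 arrays were the brightest. Their mean was only 1.02-fold the lowest signals that counted as above background in ESC, and 1.03-fold those in EB day 3. With 1 of the 2 EB day 7 arrays below background, these are not lower bounds on a difference. No Elf5 level was measured in ESC or EB day 3.

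**Figure D1:**
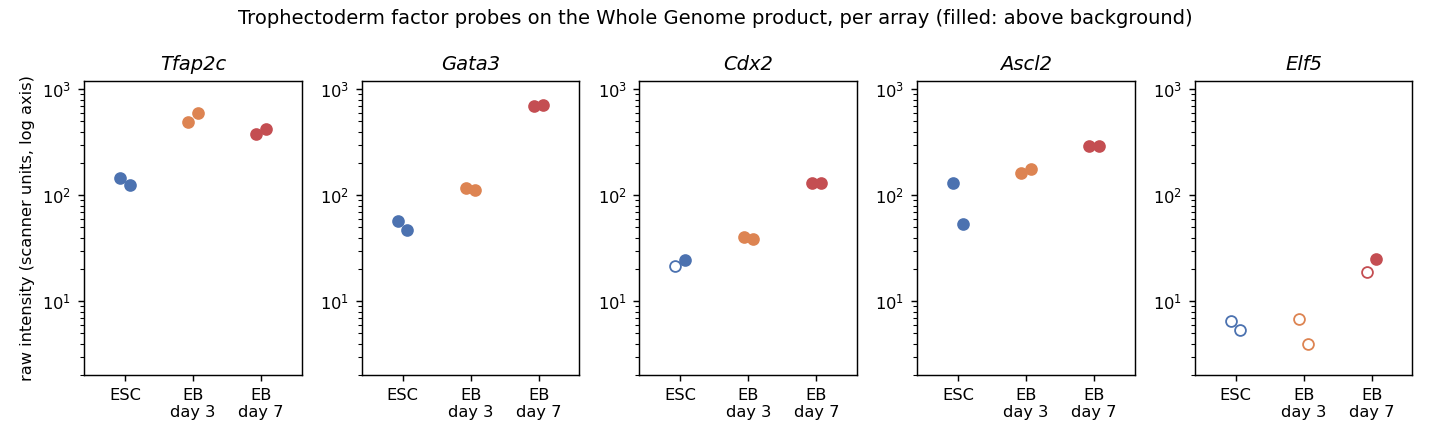
Raw intensity (scanner units, log axis) of each factor's probe on the Whole Genome product, by group, 1 point per array and 2 arrays of 1 sample per group. Filled points are above background; Gata3, Cdx2 and Ascl2 are highest at EB day 7, Tfap2c is highest at EB day 3, and Elf5 has 1 filled point.

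A difference of at least 2-fold on Whole Genome was taken as a size threshold, with no test. Of the 5 factors, 4 passed the filter on dim probes and Elf5 did not. Gata3, Cdx2 and Ascl2 were past 2-fold at EB day 7 over ESC, where 12.5% of all genes tested were that much higher (9.45% lower). Tfap2c alone was past it at EB day 3 over ESC (10.4% of all genes higher, 8.69% lower). Gata3 and Cdx2 were past it at EB day 7 over EB day 3 (7.95% of all genes higher, 6.78% lower), and none of these 4 was 2-fold lower in any of the 3 comparisons. Tfap2c, Gata3 and Ascl2 were above background on all 6 arrays, so the filter did not select them for a high group. Cdx2 had 1 of its 2 ESC arrays below background, so against ESC it passed only through the EB group, where it was higher. Its place past 2-fold over ESC is therefore a description only. Scaling by the median, the authors' normalized values and a higher floor kept these signs for the 4 factors. The 4 settings gave Gata3 at EB day 7 over ESC as log2 3.06 to 3.12, Cdx2 as 1.72 to 1.79, Ascl2 as 1.09 to 1.11 and Tfap2c as 0.86 to 0.89. Tfap2c at EB day 3 over ESC ranged from 1.59 to 1.72.

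On UniSet 20K, Gata3 was not above background in ESC replicate 1 (8.28 and 5.94), EB day 3 replicate 1 (6.41 and 9.57) or EB day 3 replicate 2 (6.42 and 8.04). It was above background in EB day 7 replicate 1 (42.8 and 39.2) and below it, though brighter than any ESC or EB day 3 array, in EB day 7 replicate 2 (17.3 and 14.8). Both adult tissue arrays were above background, at 60.0 and 61.7. EB day 7 thus had Gata3 above background in replicate 3 on Whole Genome and in replicate 1 on UniSet 20K, and replicate 2 gave only a bound, which carries no order against the bounds in ESC and EB day 3. The mean of both EB day 7 samples lay 1.43-fold above the lowest signals above background in ESC, and 1.28-fold above those in EB day 3. These are not lower bounds on a difference, since only 2 of the 4 EB day 7 arrays measured the gene. The lowest passing signal is also no detection limit: Gata3 at 17.3 was marked below background on an array where a probe at 15.8 passed. No such fold is given for adult tissue over ESC or EB day 3, because it was under 1.

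Cdx2 on UniSet 20K ranged from 1.00 to 12.8 over 12 arrays and Elf5 from -0.77 to 11.5, with every array below background, adult tissue included. The lowest probes above background on those arrays lay between 12.8 and 17.2, so intensities of this size carry no order between groups. Tfap2c and Ascl2 have no probe on this product, and their results rest on 1 sample per group.

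**Figure D2:**
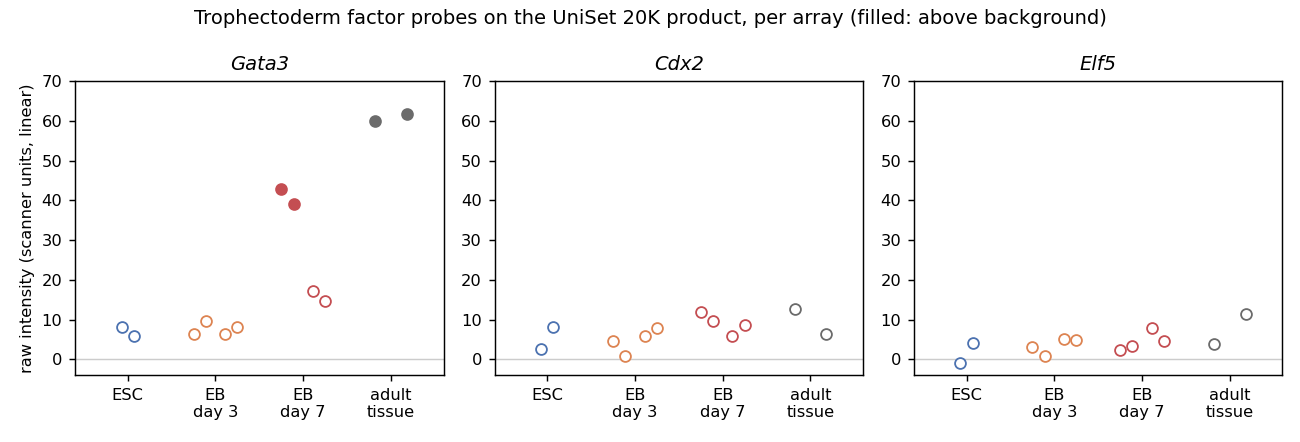
Raw intensity (scanner units, linear axis) of Gata3, Cdx2 and Elf5 on the UniSet 20K product, 1 point per array, with the arrays of a sample side by side. Filled points are above background: only Gata3 has any, in EB day 7 replicate 1 (42.8 and 39.2) and in adult tissue (60.0 and 61.7).

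In the limma fit over all 8 ESC and EB samples with the product as a term, 6299 genes passed the filter and none of the 5 factors was among them, since each was dim on or missing from UniSet 20K. Of the genes tested, 5.18% were called at an adjusted p under 0.05 (Benjamini-Hochberg) for EB day 7 against ESC, 2.81% for EB day 3 against ESC and 0.0% for EB day 7 against EB day 3, where 929 genes had an unadjusted p under 0.05. With no filter on dim probes, the fitted log2 difference of Gata3 between EB day 7 and ESC was 2.33 ± 0.46 (SE), with a limma adjusted p of 0.0692, and that of Cdx2 was 1.13 ± 0.37 (adjusted p = 0.225). These values include arrays on which the probes were below background. Leaving out EB day 7 replicate 2, the dimmer sample of its group, let Gata3 pass the filter through EB day 7, where it was high. The remaining UniSet 20K arrays of ESC and EB day 3 were below background, so the call made then is no test of Gata3 and its differences are not given.

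Gata3 was the only factor in the fit of the 7 UniSet 20K samples, which it entered through adult tissue. Its ESC and EB day 3 arrays were all below background there, so no difference from adult tissue is given for those groups (the fit did not call Gata3 in either, and called 51.8% of all genes for ESC and 62.0% for EB day 3). Its normalized log2 level was 5.08 ± 0.95 at EB day 7, with 2 of 4 arrays above background, and 4.51 ± 0.24 in adult tissue (SD, n = 2 each). The log2 difference of EB day 7 from adult tissue was 0.56 ± 0.46 (SE), with a limma adjusted p of 0.317, in a comparison that called 61.6% of 10078 genes. It was smaller than the spread of the EB day 7 samples.

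The value turned on which EB day 7 sample was kept. Without EB day 7 replicate 2, EB day 7 lay above adult tissue by 1.23. Without EB day 7 replicate 1 the difference turned to -0.10, from arrays of EB day 7 that were below background. Each of these fits leaves 1 EB day 7 sample, so neither is a test of Gata3. Raw intensities put adult tissue (60.0 and 61.7) above EB day 7 replicate 1 (42.8 and 39.2), while multiples of the array's median put it below (1.99 and 2.77 against 3.93 and 4.06). The median gene probe was at 22.2 and 30.0 on the adult tissue arrays and at 6.99 to 10.9 on the culture arrays. Scaling by the median moved the median difference of all genes for EB day 7 against adult tissue from -0.03 to -0.49, and Gata3 was then at 0.14.

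Markers of cells that use Gata3 were read in the same samples, and their part in its adult tissue level was not tested. T cell markers were above background for 7 and 5 of 10 genes in adult tissue and for 1 or 2 in each UniSet 20K culture sample, and their summed normalized intensity was 328 and 356 against 130 to 188. Mammary, kidney and lung markers were above background for 5 of 8 genes in both adult samples against 1 in each culture sample, with sums of 8007 and 10029 against 280 to 1385. The adult counts of both lists lie near the 52.9% to 57.9% of all gene probes above background on those arrays. On the culture arrays that share was 27.8% to 36.4%. The counts alone therefore single out neither cell type, while the sums of both lists were higher in adult tissue than in every culture sample.

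Other regulators of trophoblast formed a list of 26 genes. Of 9 tested in the 8-sample fit, Id2 (a helix-loop-helix inhibitor) and Rhox6 (a placental homeobox gene) rose at EB day 7 over ESC, none fell and 7 did not pass, while 1.81% of all genes were called higher. Rhox6 was at -0.08 to 4.80 in ESC replicate 1, 203.3 to 263.7 in EB day 7 replicate 1 and 54.2 to 75.1 in EB day 7 replicate 2 on UniSet 20K, and at 33.5 to 41.5 in ESC and 1896 to 2006 at EB day 7 on Whole Genome. Its fitted difference was 5.26 ± 0.59 (limma adjusted p = 0.00459). The lowest signals above background in ESC replicate 1 were 12.8 and 15.4, so Rhox6 was below background there. It entered the fit through EB, where it was high, so this difference and its adjusted p are a description only. Id2 differed by 3.97 ± 0.49 (limma adjusted p = 0.00583), and at EB day 3 over ESC, where 0.651% of all genes were called higher, by 2.43 ± 0.49 (adjusted p = 0.0442). The median difference of the 9 genes at EB day 7 over ESC was 0.26, against 0.04 over all genes.

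On Whole Genome, 7 of 25 genes of this list were at least 2-fold higher at EB day 7 than in ESC and 2 were lower, beside 12.5% and 9.45% of all genes, with a median log2 difference of 0.16 (0.04 over all genes). The genes named from Whole Genome here and below were chosen after their values were seen. Beside Id2 and Rhox6, those higher were Pparg (3.89), Msx2 (3.54), Hand1 (2.13), Gata2 (2.11) and Arid3a (1.07), and those lower were Fosl1 (-4.12) and Zfp42 (-1.20). Eomes, the T-box factor that acts beside Cdx2 in trophoblast stem cells, was at 0.97, just inside the threshold, with 125 to 135 at EB day 7 and 33.0 to 50.5 in ESC for its brighter probe, and was not above background on UniSet 20K. Tead4 (0.02), the TEAD factor upstream of Cdx2 in the embryo, and Tfap2a (0.07) were nearly level. At EB day 7 over EB day 3, 9 of the 25 were 2-fold higher and none lower, beside 7.95% and 6.78% of all genes.

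Trophoblast keratins, junction proteins and placental products, formed a list of 36 genes. Of 16 tested, 5 rose at EB day 7 over ESC and none fell, 11 did not pass, and their median was 1.79 against 0.04 over all genes. Of all genes, 1.81% were called higher and 3.37% lower. Those that rose were Krt7 (a simple keratin, 2.35 ± 0.28, limma adjusted p = 0.00545), Gjb5 (a connexin of trophoblast, 2.15 ± 0.29, adjusted p = 0.00942), Atp1b1 (a sodium pump subunit, 1.99 ± 0.38, adjusted p = 0.0287), Igf2 (an imprinted growth factor, 5.97 ± 1.03, adjusted p = 0.0210) and Bmp4 (a signalling ligand, 1.80 ± 0.41, adjusted p = 0.0461). Gjb5 alone passed at EB day 3 over ESC (1.50 ± 0.29, limma adjusted p = 0.0399), where 0.651% of all genes were called higher. Krt7 and Atp1b1 are also known in other simple epithelia, and Igf2 and Bmp4 in embryonic tissues outside the placenta.

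On Whole Genome 20 of 31 genes of that list were at least 2-fold higher at EB day 7 than in ESC and none was lower, beside 12.5% and 9.45% of all genes, with a median of 1.73. Plac1, a gene of trophoblast, was at 17.0 to 18.5 in ESC, 107 to 127 at EB day 3 and 502 to 548 at EB day 7. On UniSet 20K Plac1 was above background in EB day 7 replicate 1 only (32.2 to 40.6), against 8.73 to 11.2 in EB day 7 replicate 2, the same sample order as for Gata3, Rhox6 and Id2. Ctsj (4.17), a placental cathepsin, Peg10 (2.84), an imprinted gene needed for the placenta, and Tpbpa (2.36), a spongiotrophoblast product, were also higher. Tpbpa, found in the lineage that needs Ascl2, was at 38.1 to 42.9 at EB day 7 and below background in the other Whole Genome samples.

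**Figure D3:**
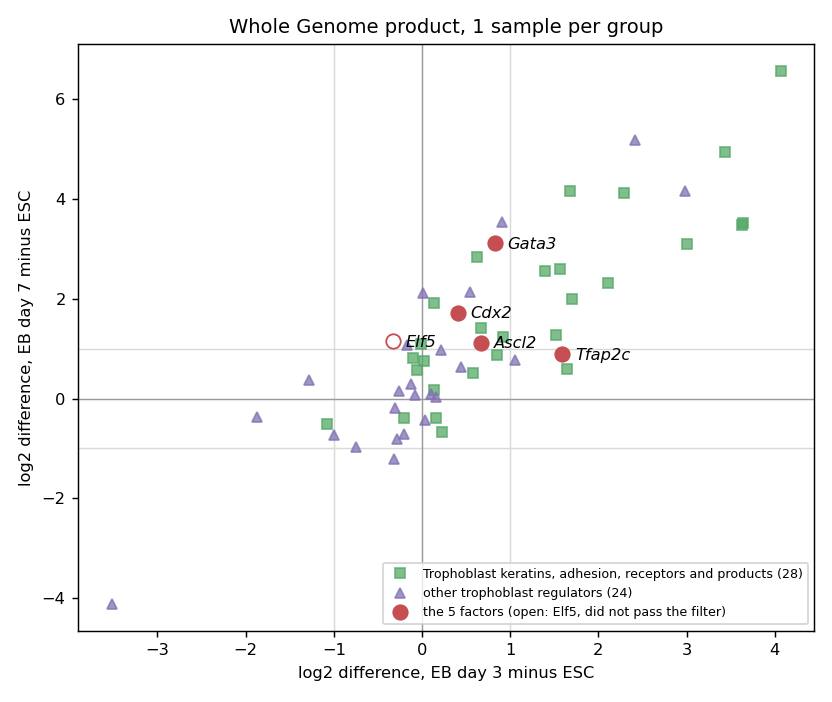
Log2 difference of EB day 3 (horizontal) and EB day 7 (vertical) from ESC on the Whole Genome product, 1 sample per group, for the 5 factors (circles) and the genes of the 2 trophoblast lists measured in both comparisons. Both axes share the ESC sample, and grey lines mark 2-fold; Gata3 is at 0.83 and 3.12, Tfap2c at 1.59 and 0.89.

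Of 18 relatives of the factors within their gene families, 3 were tested in the 8-sample fit and none passed. On Whole Genome 4 of 14 were at least 2-fold higher at EB day 7 than in ESC, beside 12.5% of all genes, among them Gata6 (2.24), an endoderm factor, Gata2 (2.11), which acts beside Gata3 in trophoblast, and Elf3 (2.04), an epithelial ETS factor. Cdx1 (-0.45) and Cdx4 (-0.71), which share the posterior role of Cdx2, were lower than in ESC by less than 2-fold after normalization. Before it, Cdx1 was higher at EB day 7 and Cdx4 overlapped, with intensities of 144 to 155 in ESC and 175 to 186 at EB day 7 for the brighter Cdx1 probe, and 196 to 197 and 191 to 205 for Cdx4. Gata4 (0.81), Gata5 (0.71) and Tfap2a (0.07) stayed inside the threshold.

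The pluripotency list includes the factors that oppose Cdx2. Of 8 tested, 1 rose (Sall4, 1.22 ± 0.18, limma adjusted p = 0.0126) and none fell at EB day 7 over ESC, with a median of -0.12. The shares called over all genes were 1.81% higher and 3.37% lower. On Whole Genome Pou5f1 was at -0.82 and Nanog at -0.10. On UniSet 20K Pou5f1 was at 540 to 586 in ESC replicate 1, 240 to 268 in EB day 7 replicate 1 and 522 to 574 in EB day 7 replicate 2. The EB day 7 sample with Gata3 above background was thus the one with less Pou5f1. Cdx2 was below background in both, and they also differed in the visceral endoderm sum (1128 and 212). A link between Pou5f1 and the factors was not tested.

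Targets of the pathways that act on Cdx2 and Gata3 were read from a pair of lists. Of the Hippo list, 4 were tested and 1 fell at EB day 7 against ESC (Ccn1, a secreted matrix protein, -1.39 ± 0.22, limma adjusted p = 0.0159). Of all genes, 3.37% were called lower there. On Whole Genome 3 of 6 were 2-fold lower and none higher, beside 9.45% and 12.5% of all genes. Of the BMP targets, 3 were tested and Id2 rose, beside 1.81% of all genes called higher. On Whole Genome 7 of the 8 were at least 2-fold higher at EB day 7 than in ESC, beside 12.5% of all genes, among them Msx1 (4.06), Msx2 (3.54) and Smad6 (2.66), with a median of 2.25, and Smad7 was at -0.61. On UniSet 20K the summed normalized intensity of the 8 BMP targets was 191 in ESC replicate 1, 335 and 180 at EB day 3, and 898 and 178 at EB day 7. EB day 7 replicate 2 was thus no higher than ESC.

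Markers of other cells that use the factors were measured in the same samples, and their part in the factors' levels was not tested. Beside Gata3 and Cdx2, visceral endoderm markers were above background for 0 of 8 genes in ESC replicate 1, 3 and 0 at EB day 3 and 5 and 4 at EB day 7, and their summed normalized intensity was 47, then 270 and 57, then 1128 and 212. On Whole Genome the sums were 532, 4421 and 11498, and 9 of 10 genes were 2-fold higher at EB day 7 than in ESC, beside 12.5% of all genes. T cell markers, for Gata3, had Whole Genome sums of 5135, 1523 and 1011, with Thy1, also a feeder marker, among them. Of 6 measured, 1 was at least 2-fold higher at EB day 7 than in ESC and 1 was lower. The shares over all genes were 12.5% and 9.45%. Lck was at 0.27 and Cd3d at -0.20 for EB day 7 over ESC. In the visceral endoderm list Apoa1 (4.88 ± 0.80, limma adjusted p = 0.0173) and Fgb (4.61 ± 0.75, adjusted p = 0.0164) rose in the 8-sample fit. With 0 of 8 genes above background in ESC replicate 1, both entered that fit through EB, where they were high. Their differences and adjusted p are a description only.

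Markers of the posterior embryo and primitive streak, where Cdx2 also acts, summed on Whole Genome to 1070 in ESC, 1074 at EB day 3 and 1393 at EB day 7. Of 11 measured, 4 were at least 2-fold higher at EB day 7 than in ESC and 2 were lower. The shares over all genes were 12.5% and 9.45%. Fgf8 was at 3.15, Wnt3 at 1.40 and Hoxa9 at -2.67 for EB day 7 over ESC. Intestinal markers gave 669, 647 and 671, and none of the 7 measured was 2-fold different.

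Germ cell markers, which share Tfap2c, summed to 2404 in ESC, 5220 at EB day 3 and 3532 at EB day 7 on Whole Genome, the same order as Tfap2c. On UniSet 20K the sums were 227 in ESC, 541 and 431 at EB day 3 and 375 and 719 at EB day 7. Of 3 tested, Kit alone rose over ESC, at EB day 3 (1.29 ± 0.20, limma adjusted p = 0.0197) and more at EB day 7 (2.06 ± 0.20, adjusted p = 0.00331). Of all genes, 0.651% and 1.81% were called higher there. On Whole Genome 3 of 7 were at least 2-fold higher than in ESC at EB day 3 and 2 at EB day 7, beside 10.4% and 12.5% of all genes. The list's medians were 0.87 and 0.04, against 0.05 and 0.04 over all genes. Surface and simple epithelium markers summed to 15651 in ESC, 28131 at EB day 3 and 23875 at EB day 7.

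Feeder fibroblast markers were lower in EB than in ESC. Of 13 tested, 8 fell at EB day 7 and 7 at EB day 3 against ESC, where 3.37% and 2.16% of all genes were called lower, and the Whole Genome sums were 47417 in ESC, 4458 at EB day 3 and 12686 at EB day 7. At EB day 7 over EB day 3, none of the 13 was called, while on Whole Genome 8 of 14 were at least 2-fold higher and 1 was lower, beside 7.95% and 6.78% of all genes. On UniSet 20K the sums were 4943 in ESC replicate 1, 245 and 1142 at EB day 3, and 1079 and 282 at EB day 7. The EB day 7 replicate with Gata3 above background thus had the higher feeder sum, and EB day 3 replicate 2, with Gata3 below background, was as high. Their part in the factors' differences was not tested.

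Gata3 and Cdx2 were compared with the 5699 named genes that passed the filter, over the 8 ESC and EB samples and after each product's mean was taken out. The genes most like Gata3 were Tmx1 (Pearson r = 0.992), Braf (0.975), Fbxl12 (0.970), Ctnnd1 (0.968) and Fut8 (0.965), and those most opposed were Hebp1 (-0.986), Dach1 (-0.975) and Spr (-0.971). Of these, Tmx1 (1.29, limma adjusted p = 0.0410) and Ctnnd1 (1.28, adjusted p = 0.0421) rose at EB day 7 over ESC. For Cdx2 they were Rnf14 (0.983), Ppp6c (0.976), Serpinb1a (0.972), Itpk1 (0.970) and BC005537 (0.963), and Mtmr9 (-0.988), Dph5 (-0.986) and Trmt5 (-0.976). All UniSet 20K values of Cdx2 and most of Gata3 were below background, the samples share products and groups, and each correlation rests on 8 points, so these names are a description only. Tfap2c and Ascl2 have 3 samples each and Elf5 was not measured, so no such genes are named for them.

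**Figure D4:**
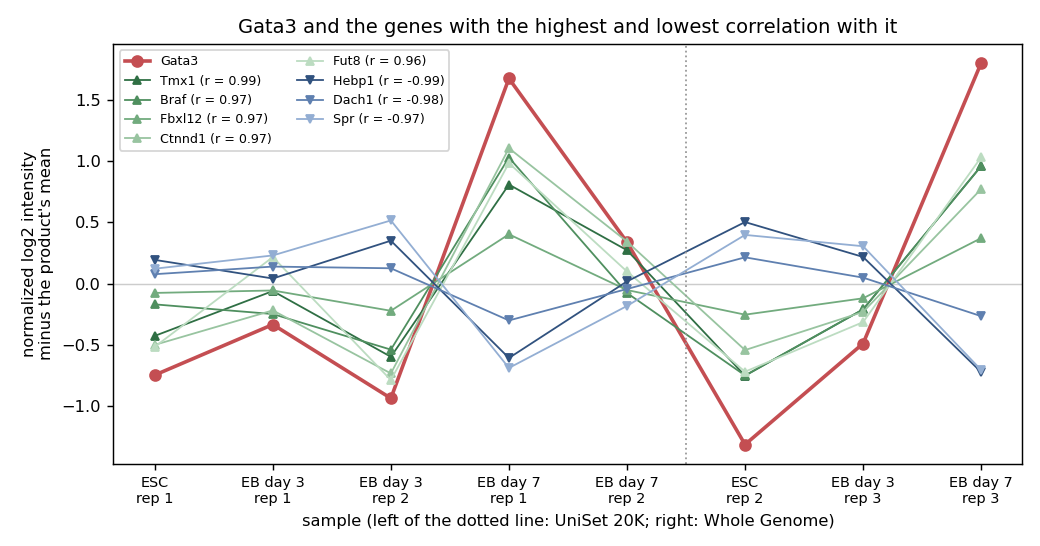
Normalized log2 intensity minus the product's mean for Gata3 and for the 8 genes with the highest (5) and lowest (3) correlation with it, by sample, lines joining the values of a gene. Gata3 stands highest in EB day 7 replicates 1 and 3 and lower in EB day 7 replicate 2.

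The chromosomal neighbours of the factors (2 genes on each side in RefSeq) were mostly within 2-fold on Whole Genome where they were measured. Bmp7, next to Tfap2c, was higher than in ESC at EB day 3 (log2 2.87) and EB day 7 (2.85), a signalling ligand in its own right. Around Ascl2, Th (-0.36), Tspan32 (0.08) and Cd81 (-0.23) stayed within 2-fold at EB day 7 over ESC, while Ins2 was at 1.77. Of the imprinted genes in the wider region of Ascl2, Igf2 (6.58), H19 (4.95) and Cdkn1c (1.92) were higher and Phlda2 (0.76) was inside 2-fold. Beside Gata3, Usp6nl was at 0.84 and Celf2 at -0.92, and beside Cdx2, Gsx1 was at -0.31 and Flt3 at -0.22.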

How the data were processed

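Each of the 18 CodeLink arrays carried labelled RNA of 1 sample, per the labels' protocols. The deposited values are scanner intensities per spot, per the file headers: a raw intensity, and the authors' normalized intensity (the raw value over the array's median; Median-Normalization, trim percentage 20, software 4.1.0.29054). Other deposited tables were not used.

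Masked, contaminated and irregular spots were left out and spots of a probe averaged. Raw intensities were quantile-normalized within each product, floored at the median negative control (3.42 on UniSet 20K, 5.23 on Whole Genome) and put on the log2 scale, and arrays of a sample were averaged. A probe passed the filter if above background on every usable array of at least 1 group. A gene was read from its brightest probe. limma 3.58.1 in R 4.3.3 was fitted to 8 ESC and EB samples with the product as a term (6299 genes) and to 7 UniSet 20K samples (10078 genes), with Benjamini-Hochberg adjustment. The lone ESC sample of the second fit was assumed to vary like the other groups. On simulated data the 8-sample fit recovered 97% of changes of log2 2 and 42% of log2 1 for EB day 7 against ESC. The simulated noise was independent between samples, with no floor and no effect of the analysis date. It covered only genes that passed the filter, so these shares do not apply to the 5 factors. The number of arrays limits the precision.

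Of 19758 probes on UniSet 20K, 12103 were named by RefSeq accession, 369 by description and 3389 by an accession listed in GEO's platform annotation. Of 34967 on Whole Genome these were 14763, 641 and 7427. Promoter sequences are RefSeq's; 4 of the 5 factors had one. The factors and the 14 gene lists were chosen with earlier results of these data known. Every factor is described. Of the genes of each list tested in a fit, those passing the adjusted p may be named, otherwise up to 3 with the smallest p. List genes named by their Whole Genome values have no p there and were chosen after those values were seen. The genes most like a factor are the 5 highest and 3 lowest correlations. Alternatives were median scaling, the authors' normalization, a floor at the 95th percentile of negative controls, no filter, the mean of a gene's probes, leaving out each sample, UniSet 20K alone, the analysis date as a term and a replicate block.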

Additional observations from a re-analysis of the deposited data

How the results depend on the processing

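No factor passed the filter in the main ESC and EB fit, so none could be called there. With no filter, 3 were tested and none was called in any comparison. Only Gata3 passed the filter against adult tissue. The main fit did not call it, and called 51.8% of all genes for ESC, 62.0% for EB day 3 and 61.6% for EB day 7. For EB day 3 it was called under median scaling and the authors' normalization, which called 6127 and 6115 of 10078 genes. All EB day 3 and ESC arrays of Gata3 on UniSet 20K were below background. Calls of Gata3 against these groups therefore say nothing of its level there. In the ESC and EB comparisons, leaving out single samples let in Gata3 alone, without ESC replicate 1 or without EB day 7 replicate 2. For Gata3, EB day 7 against adult tissue, leaving out samples gave a log2 difference of -0.10 to 1.23, the negative value without EB day 7 replicate 1. Each end of that range rests on 1 EB day 7 sample. For all genes, EB day 7 against ESC called 326, with 137 under no filter, 1 on UniSet 20K alone, 86 with the analysis date as a term and 24 to 473 leaving out samples (24 without ESC replicate 2). EB day 3 against ESC called 177, with 74, 0 and 112 under those settings and 1 to 299 leaving out samples (1 without ESC replicate 2). EB day 7 against EB day 3 called 0, with 9 at the higher floor, 7 with the mean of probes and 0 to 173 leaving out samples (173 without EB day 7 replicate 2). With the replicate number as a block the counts were 157, 67 and 12, and Gata3 stayed uncalled against adult tissue (adjusted p 0.0574 to 0.268). The differences between replicates 1 and 2, taken gene by gene, correlated at 0.319 between EB day 3 and EB day 7. With those of adult tissue they correlated at 0.026 for EB day 3 and 0.056 for EB day 7, so that the numbers are not shown to pair samples. The split of calls, 114 higher and 212 lower for EB day 7 against ESC, was 68 and 211 under median scaling. Against adult tissue it went from 2533 and 2687 to 1773 and 3288 for ESC, from 3070 and 3175 to 1982 and 4145 for EB day 3, and from 2964 and 3245 to 2008 and 4107 for EB day 7. The causes of these changes were not tested. ESC against adult tissue has no value without ESC replicate 1, the only ESC sample of that product. Whole Genome differences of the factors moved past the gap between arrays in 8 alternative values, and none changed sign past 2-fold. On the culture arrays of UniSet 20K at most 36.4% of gene probes were above background, and Tfap2c and Ascl2 have 1 sample per group.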
